A study of Mus musculus with 4 samples.

Results

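The SMC5/6 complex was represented by 9 genes of the 25050 in the table. They were Nsmce1, Nsmce3, Nsmce4a, Eid3, Smc5, Smc6, Nsmce2, Slf1 and Slf2, chosen by name as subunits or loaders of the complex, with Slf2 listed under its older symbol Fam178a and matched by its Ensembl identifier. RNA was sequenced from HT-22, an immortalised mouse line of hippocampal origin. There were 2 libraries of cells overexpressing Nsmce1 and 2 libraries of wild type cells, all from the same range of passages. The study's text also describes the treated cells as carrying an inducible Nsmce1 and the controls as uninduced cells. The sources used here do not name the inducing agent or the promoter that drives the gene, and do not say whether the line is a clone or a pool. The sample titles read Nsmce1-pb for the treated cells and WT, with PBIP codes, for the controls, and do not explain pb or PBIP. Whether the controls carry the inducible gene is not settled by the labels.

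SMC5/6 belongs, with cohesin and condensin, to the ring-shaped ATPase complexes that hold and fold chromosomes. Smc5 and Smc6 encode long coiled-coil proteins that pair at a hinge, and the kleisin Nsmce4a bridges their ATPase heads. Nsmce1, a RING-type protein, binds the MAGE protein Nsmce3 and forms with it and the kleisin a subcomplex that contacts DNA, while Nsmce2 is a SUMO ligase docked on the arm of Smc5. The complex is known for resolving recombination intermediates, for supporting stalled replication forks and for silencing viral and other circular DNA.

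The libraries held 32516117 and 44602989 whole reads with overexpression and 25787452 and 31010351 in wild type, and 15540 genes reached the minimum for testing, an average of 10 normalised reads over the libraries. All 9 genes of the complex reached it. A normalised read is a read count multiplied by 1 factor per library, and the libraries summed to between 32427524 and 32658308 of them. Of 14 neuronal markers, 8 had a row and 3 were tested. The neuronal genes Dcx, Nefm, Slc17a7 and Prox1 had at most 5.27 normalised reads in any library. Among the tested ones, the synapsin gene Syn1 had 1024 and 1219 with overexpression and 1186 and 1087 in wild type, and the tubulin gene Tubb3 had 446 and 611 with overexpression and 622 and 574 in wild type. Gap43, a growth cone gene, had 7 and 0 with overexpression and 23.9 and 44.2 in wild type (limma adjusted p = 0.46). The fibroblast collagen gene Col1a1 had 79375 and 66303 with overexpression and 82796 and 70004 in wild type. Col3a1 had 64349 and 52554 with overexpression and 81869 and 68553 in wild type (limma adjusted p = 0.56). Of 7 fibroblast markers 6 were tested, with 1 above and 5 below 0 and a median log2 fold change of -0.1. The summed neuronal markers ranged from 1491 to 1837 normalised reads with overexpression and from 1712 to 1857 in wild type. Astrocyte markers did not go 1 way. Slc1a3 had 4537 and 4245 normalised reads with overexpression and 3302 and 2956 in wild type, Aldh1l1 had 14 and 12.4 with overexpression and 57.8 and 65.3 in wild type (limma adjusted p = 0.181 and 0.118), and Gfap was at or near 0. Summed microglial markers, nearly all Tmem119, had 1655 and 1539 with overexpression and 2250 and 1900 in wild type, so the sum follows 1 gene. Aif1 had 65 and 40.1 with overexpression and 46.5 and 67.4 in wild type, groups that overlap. Ptprc, Cx3cr1 and Csf1r were at or near 0. The part of these marker differences in the results that follow was not tested. In bulk RNA, fewer cells of a type and less RNA per cell cannot be told apart. Nothing in the labels says that replicate libraries were grown as separate cultures. The p-values therefore measure the spread between these samples, which may be technical.

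The sequences before the starts of 3 genes are shown because Nsmce1 is the overexpressed gene, and because Smc6 and Slf1 each start back to back with a gene whose values are given further on. They come from RefSeq promoter windows of GRCm38.p6, which hold entries for 6 of the 9 genes, and starts are those of GENCODE M21. Capitals mark a GC box (GGGCGG or its complement CCGCCC, searched on both strands). TATAAA and CCAAT were also searched on both strands. The letters of CCGCCC and CCAAT can overlap, but no window given here holds both. For Nsmce1 the stretch is the part of the window before its outermost start, chr7:125491597-125491693 on the minus strand. For Smc6 it is the sequence between its start and that of Gen1, chr12:11265802-11265885 on the plus strand. For Slf1 it is the sequence between its start and that of 2210408I21Rik, chr13:77135474-77135539 on the minus strand.
Nsmce1: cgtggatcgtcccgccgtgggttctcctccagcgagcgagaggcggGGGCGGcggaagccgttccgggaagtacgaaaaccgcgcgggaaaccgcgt
Smc6: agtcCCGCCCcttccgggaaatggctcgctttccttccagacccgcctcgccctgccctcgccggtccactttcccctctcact
Slf1: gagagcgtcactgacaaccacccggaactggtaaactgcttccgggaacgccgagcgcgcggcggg

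The Nsmce1 stretch has 17 CpG sites in 97 bases, the Smc6 stretch 7 in 84 and the Slf1 stretch 9 in 66, with G or C at 70.1%, 66.7% and 66.7% of positions. Over whole windows of 300 bases, Nsmce1 holds 35 CpG sites at its outer start, against a median of 7 over 32851 windows of that length. A GC box is in 35.7% of those windows, CCAAT in 37.4% and TATAAA in 13.6%. The outer Nsmce1 window holds 3 GC boxes and the Smc6 window 2. Neither holds TATAAA or CCAAT. The Slf1 window holds CCAAT 2 times, both outside the stretch shown, and no GC box. An inner Nsmce1 window differs from the outer one, with 1 CpG site, 37.7% G or C against a median of 52.7%, CCAAT 1 time and no GC box.

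Nsmce1 transcripts were far more abundant in the overexpressing cells, and the fitted folds of the other 8 genes ran from 0.931 for Slf2 to 1.27 for Eid3. Nsmce1 (ENSMUSG00000030750, chromosome 7) had 17851 and 16525 normalised reads in the overexpressing libraries, against 1108 and 1206 in the wild type libraries. Both overexpressing libraries stood far above both wild type libraries. The fitted fold was 14.8, with a 95% interval of 12.8 to 17.2 (log2 fold change 3.89, SE 0.0856, limma adjusted p = 9.06e-05). Among all 25050 genes it ranked 190th and 217th by normalised reads in the overexpressing libraries, against 6237th and 5967th in the wild type libraries. Only 0.148% of tested genes had a larger log2 difference in either direction. The table gives 1 value per gene, so reads of the gene's own copy and of an introduced copy cannot be told apart. An exact permutation test of 1 gene over 2 libraries a group, two-sided, cannot give a p below 0.333, so this call rests on the variance that limma pools over genes.

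**Figure D1:**
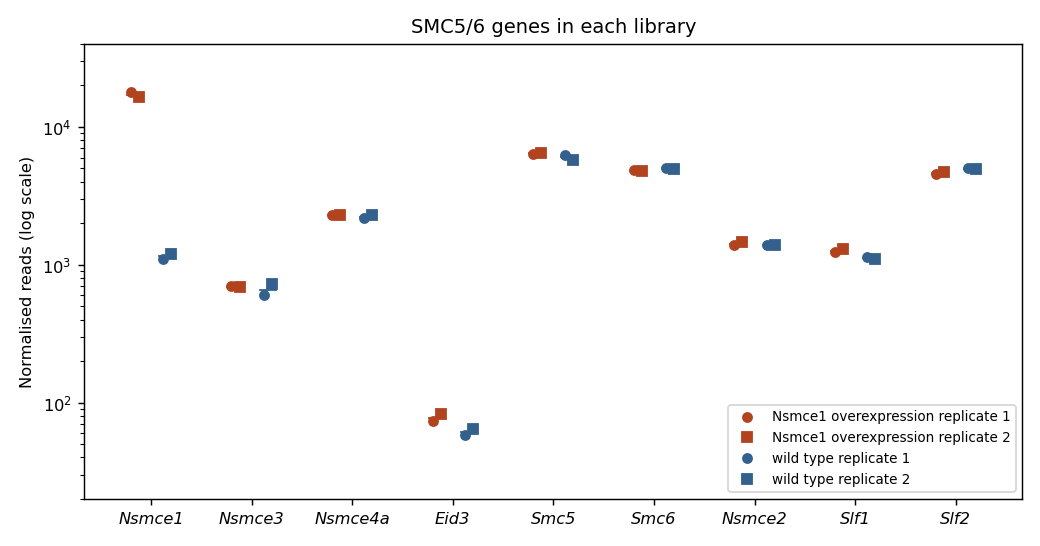
Normalised reads of the 9 SMC5/6 genes in each library on a log scale, overexpressing libraries in red and wild type libraries in blue, with short lines at the group means (n = 2). Nsmce1 stands at 17851 and 16525 with overexpression against 1108 and 1206 in wild type, while the markers of the other 8 genes lie close together.

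Nsmce1 was the 1 gene of the 9 past the threshold, a Benjamini-Hochberg adjusted p under 0.05. Of all genes tested, 30 (0.193%) passed it, 16 higher (0.103%) and 14 lower (0.0901%) with overexpression. With 1 library left out these counts lay between 2 and 33 higher and between 0 and 42 lower. None of the other 8 was called by limma, and 0 of them reached an unadjusted limma p under 0.05, which 7.92% of all tested genes did. limma voom on the recovered reads also called 0 of the 8. Their log2 fold changes ran from -0.10 to 0.34, with 6 above and 2 below 0 and a median of 0.0548. Over all 15540 genes tested, 7967 were above and 7573 below 0, with a median of 0.00536. The groups did not overlap for 5 of the 8, Eid3, Smc5 and Slf1 being higher and Smc6 and Slf2 lower with overexpression, beside 39.1% of all tested genes (20.8% higher and 18.3% lower).

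**Figure D2:**
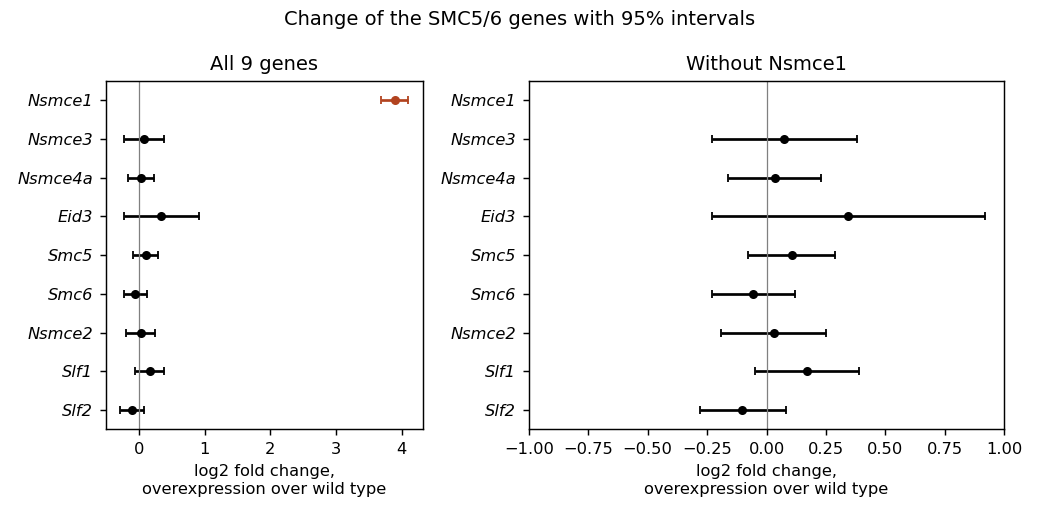
Log2 fold change of each SMC5/6 gene (points) with its 95% limma interval (bars), overexpression over wild type, for all 9 genes on the left and without Nsmce1 on an expanded axis on the right. Nsmce1 stands at 3.89, and the intervals of the other 8 genes all include 0, the widest being that of Eid3 from -0.23 to 0.92.

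Nsmce3 and Nsmce4a, the direct partners of Nsmce1 in the complex, did not pass the test. Nsmce3 (ENSMUSG00000070520, chromosome 7), the MAGE protein that binds the RING subunit, had 697 and 689 normalised reads with overexpression and 601 and 720 in wild type. The wild type libraries span the overexpressing ones, and the fold was 1.05 with an interval of 0.851 to 1.30 (limma adjusted p = 0.915). Its direction depended on 1 library, with a log2 fold change of -0.056 without wild type replicate 1 and 0.205 without wild type replicate 2. Nsmce4a (ENSMUSG00000040331, chromosome 7), the kleisin, had 2290 and 2299 normalised reads with overexpression and 2189 and 2292 in wild type. These groups overlap as well, with a fold of 1.02 and an interval of 0.895 to 1.17 (limma adjusted p = 0.943).

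Eid3 (ENSMUSG00000109864, chromosome 10), a paralogue of the kleisin best known from testis, was the least abundant of the 9 genes. It had 73 and 82.5 normalised reads with overexpression, from 73 and 113 whole reads, and 57.8 and 64.2 in wild type, from 46 and 61 whole reads. The overexpressing libraries are both above the wild type ones, and the fitted log2 fold change of 0.34 has limits at -0.23 and 0.92 (limma adjusted p = 0.755). Chromosome 10 as a whole had a median log2 fold change of 0.14 over 752 tested genes. With the median of each chromosome removed Eid3 stood at 0.203 (limma adjusted p = 0.889). In the annotation Eid3 lies inside Txnrd1 on the same strand and shares 0 exon bases with it. Txnrd1, the cytosolic thioredoxin reductase, had 6207 and 8512 normalised reads with overexpression and 6425 and 7190 in wild type. The sources used here do not say how reads from the introns of Txnrd1 were assigned.

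The ATPase genes stood on opposite sides of 0, and neither passed the test. Smc5 (ENSMUSG00000024943, chromosome 19) had 6416 and 6496 normalised reads with overexpression and 6247 and 5760 in wild type, a fold of 1.08 with an interval of 0.945 to 1.23 (limma adjusted p = 0.769). The groups do not overlap, and wild type replicate 2 is the lowest. Smc6 (ENSMUSG00000020608, chromosome 12) had 4873 and 4766 normalised reads with overexpression and 5045 and 4973 in wild type, a fold of 0.962 with an interval of 0.853 to 1.09 (limma adjusted p = 0.879). Its overexpressing libraries are both below the wild type ones. The ratio of Smc5 to Smc6 reads within a library was 1.32 and 1.36 with overexpression and 1.24 and 1.16 in wild type. No scaling of a library can change it. Because Smc5 was higher and Smc6 lower in both overexpressing libraries, this ratio had to separate the groups and adds no support. Nsmce2 (ENSMUSG00000059586, chromosome 15), the SUMO ligase, had 1381 and 1468 normalised reads with overexpression and 1392 and 1395 in wild type. Its groups overlap, with a fold of 1.02 and an interval of 0.879 to 1.19 (limma adjusted p = 0.958).

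Slf1 and Slf2, which in human cells bring SMC5/6 to damaged DNA together with the ubiquitin ligase RAD18, also stood on opposite sides of 0 without passing the test. Slf1 (ENSMUSG00000021597, chromosome 13) had 1240 and 1295 normalised reads with overexpression and 1148 and 1105 in wild type. Both overexpressing libraries are higher, the fold was 1.13 with an interval of 0.964 to 1.31, and its unadjusted limma p of 0.112 was the smallest of the 8 (adjusted p = 0.713). Slf2 (ENSMUSG00000036097, chromosome 19) had 4529 and 4716 normalised reads with overexpression and 5004 and 4920 in wild type. Both overexpressing libraries are lower, with a fold of 0.931 and an interval of 0.823 to 1.05 (limma adjusted p = 0.767). The ratio of Slf1 to Slf2 per kilobase was 0.348 and 0.349 with overexpression and 0.292 and 0.285 in wild type. With Slf1 higher and Slf2 lower in both overexpressing libraries, this ratio too had to separate the groups.

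Across the 8 genes besides Nsmce1 the intervals set how large a change these data leave room for. The upper limits of the folds lay between 1.05 for Slf2 and 1.89 for Eid3, and the lower limits between 0.823 for Slf2 and 0.964 for Slf1. The missed threshold does not show that the levels were equal. Summed, the 8 genes had 21499 and 21812 normalised reads with overexpression and 21684 and 21229 in wild type. The groups overlap in this sum.

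Levels of the 9 genes were compared per kilobase of annotated exons. In the overexpressing cells Nsmce1 averaged 12933 ± 705 normalised reads per kilobase, ahead of Smc5 at 951 ± 8.34 (SD, n = 2). In wild type Nsmce1 averaged 870 ± 52.1 and Smc5 884 ± 50.8, and the ranges of these neighbours overlapped. The order below was the same in both groups, from Slf2 (618 ± 17.7 with overexpression and 664 ± 7.88 in wild type) through Nsmce4a, Nsmce2, Smc6, Slf1 and Nsmce3 to Eid3 (59.6 ± 5.14 with overexpression and 46.8 ± 3.47 in wild type), and none of these neighbours overlapped within a group. The lengths come from the annotation and not from the authors' counting. With the length of the longest coding transcript, chosen after seeing the data, Nsmce4a led in wild type with 1561 ± 50.4 per kilobase, Smc5 and Nsmce1 again overlapped at 1056 ± 60.7 and 1033 ± 61.9, and Smc6 stood above Slf2 and Nsmce2. Nsmce1 led in overexpressing cells with either length.

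Nsmce1 held most of the complex's transcripts in the overexpressing cells only. It made up 80.8% and 79.2% of the reads per kilobase of the 9 genes in the overexpressing libraries, and 20.7% and 22.4% in the wild type libraries. The ratio of Nsmce1 to Nsmce3 in reads per kilobase was 115 and 107 with overexpression and 8.25 and 7.49 in wild type. By the lengths of the longest coding transcripts this ratio was 136 and 127 with overexpression and 9.78 and 8.89 in wild type. Relative to Nsmce4a the ratio was 29.6 and 27.3 with overexpression and 1.92 and 2 in wild type. With the longest coding transcripts it was 9.99 and 9.21 with overexpression and 0.648 and 0.674 in wild type, so which of Nsmce1 and Nsmce4a is ahead in wild type depends on the length used. The share of Nsmce1 with those lengths was 74.9% and 73.1% with overexpression and 15.7% and 17% in wild type. Nsmce1 reads per read of the other 8 genes averaged 0.794 ± 0.0514 with overexpression and 0.0539 ± 0.00404 in wild type (SD, n = 2). These are ratios of transcripts, and protein was not measured here.

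**Figure D3:**
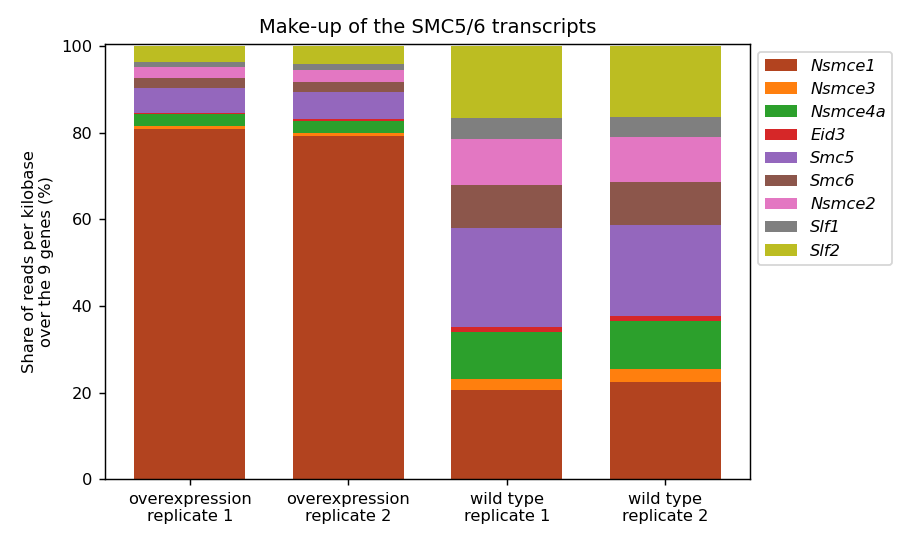
Share of each SMC5/6 gene in the summed reads per kilobase of the 9 genes (percent, stacked bars, 1 bar per library). Nsmce1 fills 80.8% and 79.2% of the overexpressing libraries and 20.7% and 22.4% of the wild type libraries.

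The genes beside the 9 members gave the positional context. Of the 36 nearest tested neighbours 0 were called by limma, and 9 reached an unadjusted limma p under 0.05, beside 0.193% and 7.92% of all tested genes. Their median log2 fold change was -0.0665, and the lowest was -1.54 for Fam189a1, which overlaps Nsmce3 and had 4 and 5.11 normalised reads with overexpression and 11.3 and 20 in wild type. Beside Nsmce1, the dioxygenase gene Kdm8 had 94 and 163 normalised reads with overexpression and 98.1 and 135 in wild type (log2 fold change 0.10, limma adjusted p = 0.962). The interleukin 4 receptor gene Il4ra had 895 and 797 with overexpression against 924 and 955 in wild type (-0.15, limma adjusted p = 0.758). Gtf3c1, a subunit of an RNA polymerase III factor, had 5366 and 5841 with overexpression against 5302 and 5259 in wild type (0.08, limma adjusted p = 0.824), and the pseudogene Glud-ps had 20 and 12.4 with overexpression against 17.6 and 20 in wild type (-0.24, limma adjusted p = 0.925). The 14.8-fold difference of Nsmce1 had no counterpart in these 4 genes.

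Smc6, Nsmce2 and Slf1 each start head to head with another tested gene, the start positions being 85, 80 and 67 bases apart. Gen1, a Holliday junction resolvase that shares the short Smc6 stretch shown above, had 476 and 521 normalised reads with overexpression and 640 and 646 in wild type. Both overexpressing libraries are lower (log2 fold change -0.37, SE 0.114), but the difference did not pass over all genes (limma adjusted p = 0.494), and Smc6 itself stood at -0.06. Washc5, a subunit of the WASH actin regulator that starts next to Nsmce2, had 8745 and 9722 normalised reads with overexpression and 9531 and 10074 in wild type (-0.09, limma adjusted p = 0.829). The gene 2210408I21Rik beside Slf1 had 98 and 112 with overexpression against 116 and 90.6 in wild type (0.04, limma adjusted p = 0.985). Around Eid3 on chromosome 10, the transcription factor gene Nfyb stood at 0.38 and the sulfotransferase gene Chst11 at 0.25 (limma adjusted p = 0.364 and 0.549), beside the 0.34 of Eid3 itself. The other neighbours of Eid3, Txnrd1 at 0.10 and Gm4799 at -0.07, had groups that overlap. Around Slf2 on chromosome 19, which stood at -0.10, both overexpressing libraries were also lower for the oxygenase gene Hif1an (-0.29, limma adjusted p = 0.446), the respiratory chain gene Ndufb8 (-0.25, limma adjusted p = 0.549) and the mitochondrial ribosome gene Mrpl43 (-0.19, limma adjusted p = 0.701). The groups overlap for Sema4g, the remaining neighbour, at -0.12. Of all tested genes, 18.3% were likewise lower without overlap of the groups. The median log2 fold change of chromosome 19 was -0.006, and Hif1an and Ndufb8 lie 355 and 376 kilobases from Slf2.

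**Figure D4:**
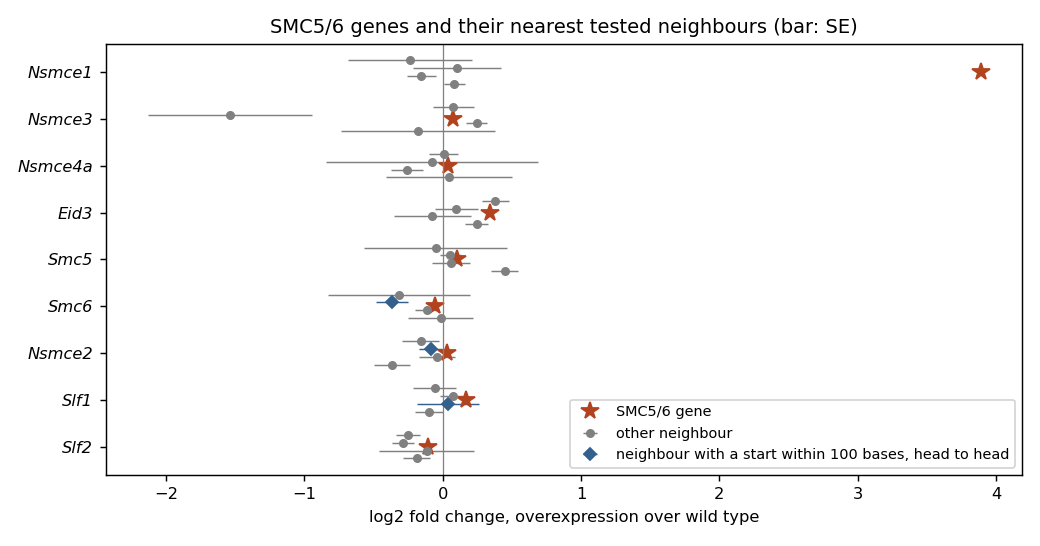
Log2 fold change, overexpression over wild type, of the 9 SMC5/6 genes (stars) and of the 2 nearest tested genes on each side of each (points, with bars of 1 SE). Nsmce1 stands at 3.89 while its 4 neighbours lie between -0.24 and 0.10, and diamonds mark the neighbours that start head to head within 100 bases, Gen1 at -0.37, Washc5 at -0.09 and 2210408I21Rik at 0.04.

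The genes whose pattern was most like that of Nsmce1 were taken as those with the highest Pearson r of log2 values over the 4 libraries, among 108 genes averaging 100 or more normalised reads with group means at least 1 apart on the log2 scale. They were Plxnb1 (r = 0.9994), Gm21887, Gm45062, Crk (r = 0.9977) and Pcyt1a (r = 0.9970). The 4 points form 2 groups, so r shows mainly that replicates are close. Plxnb1, a semaphorin receptor, had 395 and 377 normalised reads with overexpression and 169 and 167 in wild type, and narrowly missed the threshold (log2 fold change 1.20, limma adjusted p = 0.0583). Crk, Pcyt1a, Gm21887 and Gm45062 passed the threshold (limma adjusted p = 0.00119, 0.00377, 0.00109 and 0.00383). Crk had 7146 and 7515 normalised reads with overexpression and 2089 and 1991 in wild type. Pcyt1a had 6393 and 6489 with overexpression and 2392 and 2226 in wild type. Gm21887 had 527 and 589 with overexpression and 0 reads in both wild type libraries. Gm45062 had 384 and 232 with overexpression and likewise 0 in wild type, and it shares 92.6% of its exon bases with Glcci1 on the same strand. None of the other 8 SMC5/6 genes met the difference of 1, their largest log2 fold change being 0.34. Their r was 0.93 for Slf1, 0.90 for Eid3, 0.77 for Smc5 and 0.61 for Nsmce4a. It was 0.43 for Nsmce2, 0.40 for Nsmce3, -0.90 for Smc6 and -0.93 for Slf2. Groups that do not overlap move r away from 0, and 39.1% of all tested genes had such groups. These r values therefore add no support for a shared or opposite pattern.

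Partners of the complex were examined in 7 lists, and 0 of their tested members were called in either direction by limma. Unadjusted limma p-values under 0.05 were found for 4 of 17 SUMO genes, 1 of 13 ubiquitin genes, 1 of 6 PML body genes and 2 of 16 recombination genes, and for 0 in the other lists, beside 7.92% of all tested genes. Of all 15540 genes tested, 7967 had a log2 fold change above 0 and 7573 below 0. The SUMO machinery, in which Nsmce2 acts as a ligase, had 15 of 17 genes above 0 and a median log2 fold change of 0.0934. Its groups did not overlap for 9 genes, all higher with overexpression, beside 20.8% higher over all tested genes. Senp7, a SUMO chain protease, had 1660 and 1684 normalised reads with overexpression and 1368 and 1193 in wild type (log2 fold change 0.39, limma adjusted p = 0.399). Senp5, a nucleolar SUMO protease, had 2346 and 2790 with overexpression and 2022 and 1986 in wild type (0.35, limma adjusted p = 0.476). The groups do not overlap for either gene. Senp7, Senp5 and Senp2 lie on chromosome 16, whose 448 tested genes had a median of 0.169, and 6 of the 17 genes lie on chromosome 10 or 16. With chromosome medians removed, Senp7 stood at 0.22, Senp5 at 0.18 and Senp2 at 0.05, and the median of the list was 0.053 with 15 of 17 above 0. Then 1 of the 17, Senp3 at 0.27, had an unadjusted limma p under 0.05, beside 6.83% of all tested genes.

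**Figure D5:**
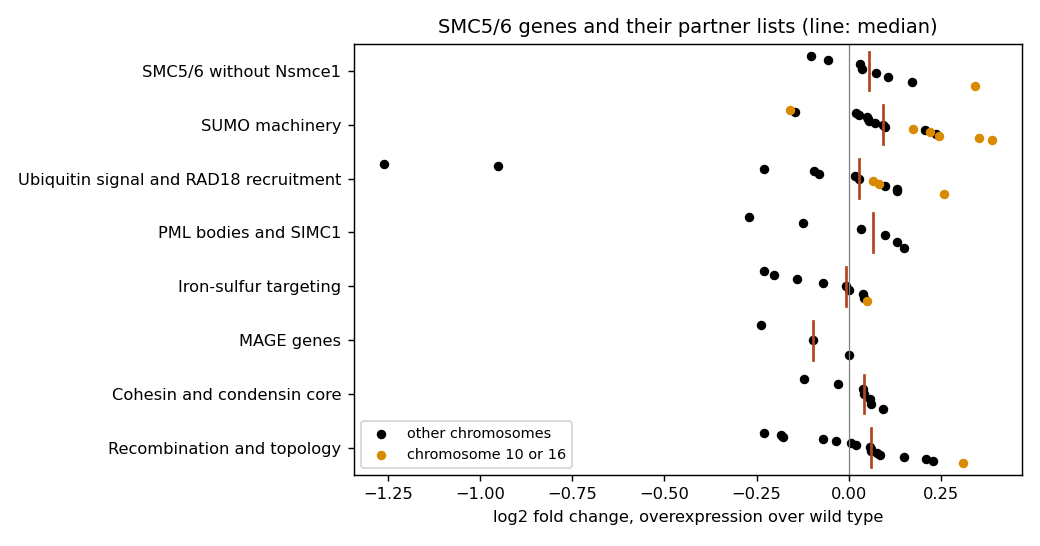
Log2 fold change, overexpression over wild type, of each tested gene (points) in the SMC5/6 genes without Nsmce1 and in 7 partner lists, with a vertical line at each median. Genes of chromosomes 10 and 16, in orange, include the highest SUMO genes, Senp7 at 0.39 and Senp5 at 0.35, and Ube2v1 at -1.26 and Rnf8 at -0.95 are the lowest points.

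The ubiquitin genes that act with RAD18, which joins Slf1 in recruiting the complex, had 8 of 13 above 0 and a median of 0.0272. With chromosome medians removed, 6 of 13 were above 0 and the median was -0.05. Rnf168, a histone ubiquitin ligase on chromosome 16, had 4675 and 4597 normalised reads with overexpression and 3972 and 3786 in wild type (log2 fold change 0.26, limma adjusted p = 0.458), and stood at 0.09 with chromosome medians removed. Ube2v1, a cofactor for building ubiquitin chains, had 2280 and 557 normalised reads with overexpression and 2647 and 2763 in wild type. Only overexpression replicate 2 is low, and the log2 fold change of -1.26 (limma adjusted p = 0.666) was -0.25 without that library (limma adjusted p = 0.6) and -2.28 without overexpression replicate 1 (limma adjusted p = 0.00361). Rnf8, the ligase upstream of Rnf168, was noticed after its values were seen, with 853 and 269 normalised reads with overexpression and 882 and 974 in wild type, again low in overexpression replicate 2. Its log2 fold change of -0.95 (limma adjusted p = 0.698) was -0.12 without that library (0.856) and -1.78 without overexpression replicate 1 (0.0169).

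Both genes share exons on the same strand with another gene of the table that was high in that library. Ube2v1 shares 61.5% of its exon bases with Gm20431, which had 0 and 2491 normalised reads with overexpression and 0 in both wild type libraries. The sum of the pair was 2280 and 3048 with overexpression and 2647 and 2763 in wild type. Rnf8 shares 13.2% of its exon bases with Gm28043, which had 714 and 1662 with overexpression and 697 and 633 in wild type. That pair summed to 1567 and 1931 with overexpression and to 1578 and 1607 in wild type. Neither sum is low in overexpression replicate 2. The part of read assignment in the low values of Ube2v1 and Rnf8 was not tested.

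The medians of the other lists lay between -0.0961, for the MAGE genes, and 0.0665. Of the 16 recombination and topology genes, 6 were higher and 3 lower without overlap of the groups. Over all tested genes those shares were 20.8% and 18.3%. The recombination and topology genes had 11 of 16 above 0 (median 0.0589). Among these the helicase gene Blm had 1951 and 1884 normalised reads with overexpression and 1710 and 1565 in wild type (log2 fold change 0.23, limma adjusted p = 0.616), and the nuclease scaffold gene Slx4 on chromosome 16 stood at 0.31, or 0.14 with chromosome medians removed. The core genes of cohesin and condensin had 5 of 7 above 0 (median 0.0406), with Smc3 at -0.12 and Smc4 at 0.09. Genes of PML bodies and Simc1, which encodes another partner of SLF2, had 4 of 6 above 0 (median 0.0665). Sp100, a PML body protein, had 950 and 896 normalised reads with overexpression and 1190 and 1043 in wild type (-0.27, limma adjusted p = 0.624), and Pml itself stood at 0.15. Iron-sulfur targeting genes had 4 of 9 above 0 (median -0.00776). Mms19, whose human protein is a target of a ligase formed by NSE1 and MAGE-F1, had 3002 and 2622 with overexpression and 3192 and 3271 in wild type (-0.20, limma adjusted p = 0.662). Mms19 shares 9.21% of its exon bases with Zdhhc16 on the opposite strand, and Nubp2 of the same list stood at -0.23. Of 8 MAGE genes besides Nsmce3, 3 had a row and were tested, with Maged2 at -0.24, Magee1 at -0.10 and Maged1 at 0.00. The other 5, Magef1 among them, had no row under the symbols searched.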

How the data were processed

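RNA was measured in 4 libraries of HT-22 cells, 2 per group. HISAT, Cufflinks and the build mm9 are named, without versions, in the submitters' processing notes. The sources used here do not give the counting rules, strand use or annotation. The authors deposited log2(normalised reads + 1) for each gene. After the log2 was undone, 100% of values were whole multiples of 1 step per library within 0.001 read, a step of 1.00 and 0.730 with overexpression and 1.26 and 1.05 in wild type. Columns were matched to samples by their names in the labels.

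limma 3.58.1 in R 4.3.3 with a mean-variance trend was fitted to the log2 values of all genes with a mean of at least 10 normalised reads, with group as the only term. P-values are two-sided and Benjamini-Hochberg adjusted over all 15540 tested genes, with a threshold of 0.05. Intervals are 95% limits from limma, and fold changes on the log2(value + 1) scale understate low genes. Chromosomes, exon lengths, neighbours and overlaps came from GENCODE M21 (GRCm38) for 24952 of 25050 genes. Its build differs from mm9, so only the RefSeq promoter windows are given by coordinates.

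The members and lists were chosen with earlier results of these data known. Named genes were the members, the genes past the threshold or otherwise the 2 with the smallest p of each list, the 2 neighbours on each side of Nsmce1 and the 5 most like it. Others were named after their values were seen. Alternatives covered pseudocounts of 0.1 and 5, filters, scalings, variance models including voom on recovered reads, a replicate block, leaving out libraries in turn, and other thresholds.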

Additional observations from a re-analysis of the deposited data

How the results depend on the processing

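Nsmce1 stayed past the threshold in all 18 alternatives run. Its log2 fold change was 3.831 to 3.953 with each library left out (limma adjusted p from 0.000216 to 0.0133) and 3.888 to 3.919 in the other 14 (2.49e-06 to 0.0228). None of the other 8 genes was called in any of them. Leaving out a library changed the sign of Nsmce3 (-0.056 to 0.205) and of Nsmce2 (-0.013 to 0.075), and the median of the 8 ranged from 0.015 to 0.071. With 1 library left in a group, that library is assumed to vary like the other group.

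The number of genes called over all tested, 16 higher and 14 lower, did depend on the setting, and the cause was not tested. Higher genes numbered 10 with a pseudocount of 0.1, 8 with quantile normalization and 9 with voom on recovered reads, which called 11 lower. Without a filter there were 7 higher and 9 lower, without a trend 5 and 4, with robust variances 32 and 40, at an adjusted p under 0.01 there were 5 and 6, and under 0.1 there were 32 and 37. With each library left out the higher genes ranged from 2 to 33 and the lower genes from 0 to 42. There were 15 higher and 36 lower without overexpression replicate 1, 33 and 42 without overexpression replicate 2, 2 and 0 without wild type replicate 1, and 8 and 1 without wild type replicate 2. The same-numbered libraries of the groups did not deviate together (r = 0.00682 over 15540 genes). With 2 libraries a group this cannot show whether they were handled as pairs, which the labels do not say. The replicate block gave 24 higher and 36 lower genes and 3.892 for Nsmce1 (limma adjusted p = 7.18e-05), and changed no call among the 9 genes. Nsmce1 reads per read of the other genes, 0.794 with overexpression, were 4 per kilobase and 1.1 without Eid3, Slf1 and Slf2.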
